A study of Mus musculus with 2 samples.

Results

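In the mouse eye lens, 10 genes were examined: 3 secreted frizzled-related proteins (Sfrp1, Sfrp2, Sfrp5), Dkk3, the Wnt secretion factor Wls, the receptors Fzd1, Fzd6 and Lrp6, and the D-type cyclins Ccnd1 and Ccnd2. They were found as the probes whose only gene symbol in the platform annotation was one of these names. This gave 10 probes of 9 genes, among 13709 genes in all, with 2 probes for Sfrp1 and none named Dkk3. The lens was sampled as cortical fiber cells (cortex) and as the capsule with its adhering epithelial cells (epithelium), from 5 mice aged 13 days, with 1 array for each. No genotype, strain or treatment is given for either sample, and nothing in the labels says if the animals' lenses were pooled.

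Wnt proteins are secreted lipid-modified ligands that bind Frizzled receptors together with the co-receptors Lrp5 and Lrp6. In the canonical branch this keeps β-catenin from being degraded, and β-catenin then acts with TCF/LEF factors on target genes, of which D-type cyclins are known examples in several tissues. Secreted frizzled-related proteins bind Wnt ligands outside the cell and modulate signalling. In the lens, Wnt signalling is known for its role in the epithelium and in the orderly alignment of elongating fibers.

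The values are normalised intensities on a linear scale, in units close to each array's median (0.998 for both arrays). A floor was set at 0.5 of the median (0.499 on both arrays), and 24.5% of all genes lay at or below it on both arrays. This floor was chosen here and does not stand for a limit of detection. With 1 array per sample no test was possible. A gene is called higher in cortex or in epithelium here if its intensity there was 3 or more times that of the other sample and reached the array median. The only spread that could be computed is that between different probes of 1 gene on the same arrays. This spread does not hold the variation between arrays, dissections or animals. Over 558 genes with more than 1 probe above the floor on both arrays, its pooled SD was 1.10 and its median SD 0.59 on the log2 scale. The labels were set against cell type markers. By this limit cortex held 7 of 9 fiber markers and none of 9 epithelial markers as higher, while epithelium held none of the fiber markers and 7 of the epithelial ones. The epithelium array still carried strong fiber marker signal. Fiber markers had a summed level of 9537 in cortex and 1442 in epithelium, where Crygs alone read 988. Epithelial markers summed to 18.2 in cortex and 517 in epithelium. The source of the fiber marker signal in epithelium was not tested. The sample descriptions also speak of fetal liver RNA. Of 7 liver markers, Apoa1, Ttr and Serpina1a were at the floor on both arrays. Ahsg alone was called, 10.9-fold higher in cortex (185 in cortex, 16.9 in epithelium). Trf read 1.16 in cortex and 2.26 in epithelium, and Afp 0.660 in cortex and 0.680 in epithelium. Fgb read 0.506 in cortex and was below the floor in epithelium (0.235). Hba-a1 of red cells stood at 1.39 in cortex and 1.79 in epithelium. None of 8 retina, 5 erythroid and 8 leukocyte or endothelial markers was called in either direction, beside 17.6% of all genes. At the floor on both arrays were 3 of the retina, 2 of the erythroid and 7 of the leukocyte or endothelial markers. Others had signal, such as Rcvrn (2.35 in cortex, 1.87 in epithelium), Crx (1.51 in cortex, 0.513 in epithelium) and Tek (0.928 in cortex, 2.40 in epithelium). A lack of calls does not show that these tissues were absent.

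Among the Wnt modulators and D-type cyclins, Ccnd2 alone differed by at least 3-fold, and it was higher in epithelium. None of the 9 was higher in cortex, where 9.41% of all genes were, and 1 of 9 was higher in epithelium, where 8.17% of all genes were. A single gene of 9 is close to that background. Sfrp1, Wls and Fzd1 had values above the floor in both samples and stayed within 3-fold. Fzd6 was above it in cortex alone, and Sfrp2, Sfrp5, Lrp6 and Ccnd1 were at or below it on both arrays. The 5 genes above the floor had a median log2 difference, cortex minus epithelium, of -0.56, beside 0.07 over all genes that exceeded the floor in either sample. Over all 9 the median was 0.00, which the genes at the floor fix.

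**Figure D1:**
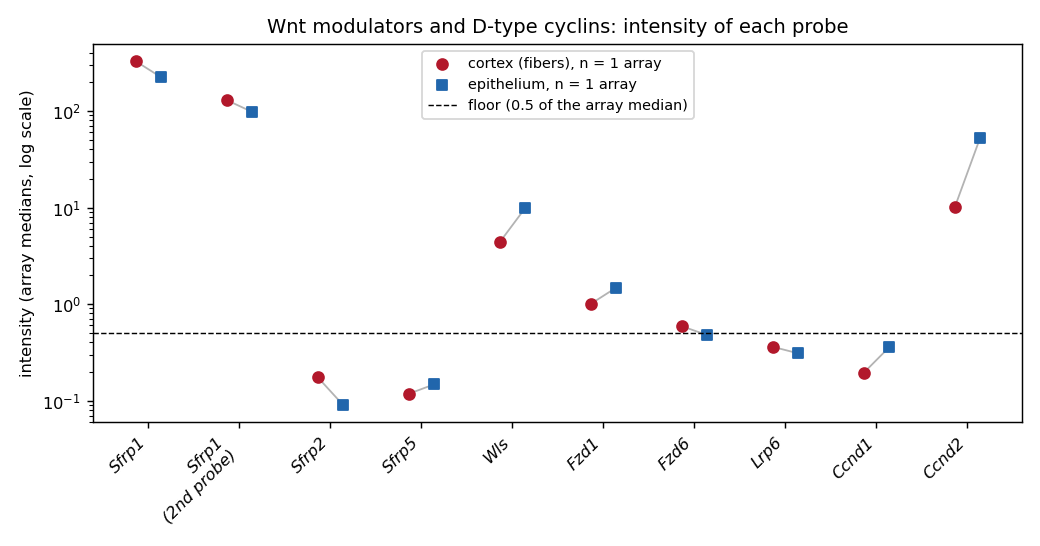
Intensity of each of the 10 probes on the cortex array (circles) and the epithelium array (squares), in array medians on a log axis, with 1 array per sample, lines joining the values of a probe and a dashed line at the floor. Both Sfrp1 probes lie far above the floor on both arrays, the widest gap is that of Ccnd2 (10.1 in cortex, 53.1 in epithelium), and Sfrp2, Sfrp5, Lrp6 and Ccnd1 lie below the floor on both.

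Sfrp1, a secreted antagonist known to be made by the lens epithelium, was far above the floor on both arrays. Its first probe, annotated to transcript AK008943, read 329 in cortex and 224 in epithelium. The second, for NM_013834, read 130 in cortex and 98.0 in epithelium. Both probes were thus brighter in cortex, by 1.47-fold and 1.32-fold, and their log2 differences (0.56 and 0.41) lay 0.15 apart. Each difference was smaller than the median SD between probes. Their direction turned with the scaling. The first probe differed by -0.62 after quantile normalization and by -0.57 after a loess correction on brightness, and the second by -0.50 and -0.45. Centring on ribosomal protein genes also gave values below 0 (-0.36 and -0.51), but it moves all genes together and both lay above the median of -0.76 that it gives, so it is not counted as a turn. Sfrp1 was thus well above the floor in both samples, with no settled direction between them.

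Sfrp2 read 0.175 in cortex and 0.0898 in epithelium, and Sfrp5 read 0.118 in cortex and 0.147 in epithelium. All 4 values were below the floor, so no fold is given for these secreted Wnt binders. Absence of the transcripts cannot be read from values this low. Sfrp1 was the one of the 3 frizzled-related genes examined with values above the floor.

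Several other antagonists of the pathway were brighter in cortex. Of 17 extracellular antagonists with a probe, these included, 4 (23.5%) were called higher in cortex and 1 (5.88%) in epithelium. The shares over all genes were 9.41% and 8.17%. At the floor on both arrays were 7 (41.2%), beside 24.5% of all genes. Frzb, a further secreted frizzled-related protein, read 91.4 in cortex and 3.26 in epithelium (28.0-fold). Kremen1 (45.2 in cortex, 3.34 in epithelium) and Kremen2 (6.95 in cortex, 0.802 in epithelium), membrane receptors for Dickkopf proteins, were 13.5-fold and 8.66-fold higher in cortex. Sfrp4 (2.39 in cortex, 0.738 in epithelium, 3.24-fold) was higher in cortex and Sostdc1, a Wnt and BMP antagonist, in epithelium (0.735 in cortex, 2.68 in epithelium, 3.65-fold). Raising the floor to the array median removed both of these last calls, and that of Sfrp4 was also lost after centring on ribosomal protein genes (0.78).

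**Figure D2:**
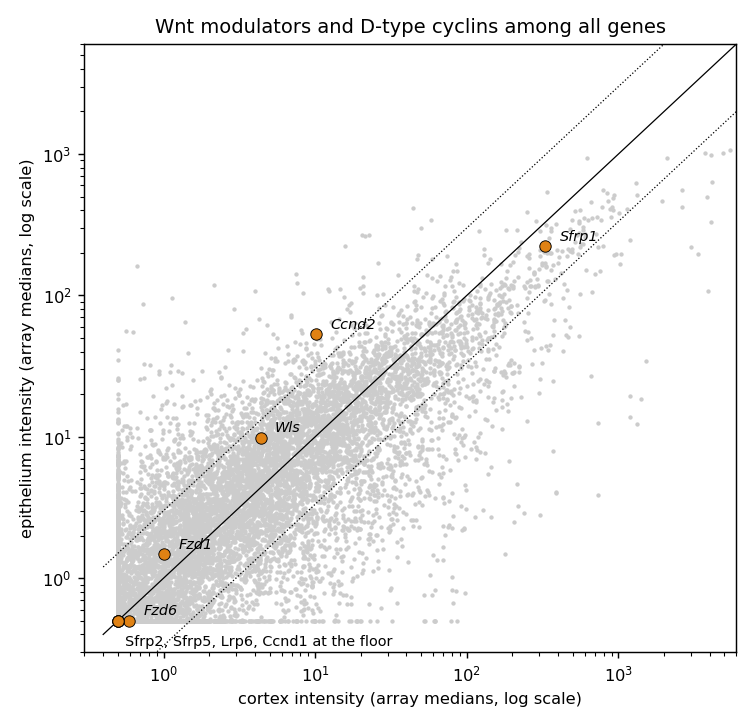
Epithelium intensity against cortex intensity for all 13709 genes (grey) and the 9 genes described (orange), in array medians on log axes, with values under the floor drawn at it; the solid line marks equality and the dotted lines 3-fold. Ccnd2 lies outside the dotted lines on the side of epithelium, while Sfrp1, Wls, Fzd1 and Fzd6 lie between them.

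Wls carries Wnt proteins from the Golgi to the cell surface and is needed for their release. It read 4.37 in cortex and 9.88 in epithelium, 2.26-fold higher in epithelium and under the 3-fold limit. The log2 difference of -1.18 was 1.07 times the pooled SD between probes, and 12.7% of all genes lay at least as far in the direction of epithelium. Wls kept this direction in each scaling tried and passed 3-fold after centring on ribosomal protein genes (-2.09). That centring moves all genes together, to a median of -0.76 over genes above the floor in both samples. Of 13 genes of Wnt secretion and the R-spondin system with a probe, Wls included, none was 3-fold different in either direction. The share over all genes was 17.6%. Porcn, the enzyme that attaches the lipid to Wnt proteins, read 1.73 in cortex and 1.60 in epithelium, and Rspo1, a secreted enhancer of Wnt signalling, read 47.1 in cortex and 22.9 in epithelium.

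The receptor Fzd1 read 1.004 in cortex and 1.48 in epithelium, or 1.47-fold more in epithelium. These values were close to the array medians and the log2 difference of -0.56 was under the median SD between probes. Its direction was the same in each scaling tried. The difference was largest after centring on ribosomal protein genes, at -1.48, a setting that moves all genes together. Fzd6, a Frizzled known from planar cell polarity of the skin in mice, read 0.591 in cortex and 0.477 in epithelium. The epithelium value was below the floor, so Fzd6 was at least 1.18-fold higher in cortex, a bound that does not separate the samples. The co-receptor Lrp6 read 0.361 in cortex and 0.309 in epithelium, below the floor on both. Its relative Lrp5 was just above it, at 0.729 in cortex and 0.623 in epithelium.

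The other receptors gave few calls. Of 14 Wnt receptors and co-receptors with a probe, Fzd1, Fzd6 and Lrp6 included, 5 (35.7%) were at the floor on both arrays. The share over all genes was 24.5%. None was 3-fold higher in cortex, beside 9.41% of all genes, and 1 (7.14%) was in epithelium, beside 8.17%. Ptk7, a receptor of the polarity branch, was at least 3.18-fold higher in epithelium (0.374 in cortex, 1.59 in epithelium), a call lost when the floor was raised to the array median. Fzd7 read 2.55 in cortex and 1.77 in epithelium.

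Wls and Fzd1 are the genes measured on both arrays whose start regions were in the RefSeq promoter table (build GRCm38.p6), which holds 4 of the 10 genes. Their 250 bases upstream of the annotated start are shown because both genes were brighter in epithelium in each scaling tried. The Wls window lies at chr3:159839400-159839649 on the plus strand and that of Fzd1 at chr5:4758217-4758466 on the minus strand, both printed in the direction of transcription. Capitals mark CTTTG, the core of the TCF/LEF motif, or its reverse complement CAAAG.
Wls: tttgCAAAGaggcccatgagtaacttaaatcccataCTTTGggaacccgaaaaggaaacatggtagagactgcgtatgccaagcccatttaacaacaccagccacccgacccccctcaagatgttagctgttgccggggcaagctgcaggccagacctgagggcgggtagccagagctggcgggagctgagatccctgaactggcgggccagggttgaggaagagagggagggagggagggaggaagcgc
Fzd1: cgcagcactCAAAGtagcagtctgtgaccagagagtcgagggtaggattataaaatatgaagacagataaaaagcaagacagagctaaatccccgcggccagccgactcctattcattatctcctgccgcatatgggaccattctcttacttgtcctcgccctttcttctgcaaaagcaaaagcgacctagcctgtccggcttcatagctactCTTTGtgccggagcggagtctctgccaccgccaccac
Wls held 2 copies, beginning at positions -246 and -214 from the start, and Fzd1 held 2, at -241 and -37. The windows of Sfrp2 and Sfrp5, at the floor on both arrays, held none. The core is short, and 48.6% of all 32851 such windows held it on one strand or the other. Of 115 genes of the Wnt lists in the promoter table, 51 held it in at least 1 window. A link between the core and intensity was not tested. The longer CTTTGAT was in none of the 4 windows and in 3.21% of all windows, and no binding was measured. The G and C content was 58.0% for Wls and 51.2% for Fzd1, beside a median of 52.4% over all windows.

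Ccnd2 encodes cyclin D2, which with Cdk4 or Cdk6 drives cells from G1 towards S phase. It read 10.1 in cortex and 53.1 in epithelium, 5.28-fold higher in epithelium, on its single probe. The log2 difference of -2.40 was 2.19 times the pooled SD between probes, and 3.18% of all genes lay at least as far in that direction. Ccnd2 stayed above 3-fold in each alternative scaling, from -2.74 after loess to -3.32 after centring on ribosomal protein genes, which moves all genes together. The other floors could not change its difference, since both values lie far above them. In dissected tissue, fewer cells of a type and less RNA per cell cannot be told apart. Markers of neighbouring tissue had calls in both directions. Of all genes, 9.41% were called in cortex and 8.17% in epithelium. Of 10 ciliary body markers, 1 was called in cortex (Opn3) and 3 in epithelium (Ptgds, Msx1 and Gpx3). The 10 markers had a summed level of 47.1 in cortex and 164 in epithelium. Ptgds alone read 7.54 in cortex and 123 in epithelium, and without it the sums were 39.5 in cortex and 41.7 in epithelium. Zic1, Wfdc1 and Cldn2 were at the floor on both arrays. Of 9 pigment cell markers, 1 was higher in cortex (Dct) and 2 in epithelium (Tyrp1 and Oca2), with Tyr at the floor on both arrays. Their summed level was 8.26 in cortex and 16.5 in epithelium, and without Oca2 (0.521 in cortex, 9.09 in epithelium) it was 7.74 in cortex and 7.37 in epithelium. Their part in the Ccnd2 difference was not tested.

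Ccnd1, which encodes cyclin D1 and is a textbook target of β-catenin, read 0.194 in cortex and 0.358 in epithelium. Both values were below the floor, so no fold is given. The third D-type cyclin, Ccnd3, read 1.38 in cortex and 2.998 in epithelium, 2.17-fold higher in epithelium and under the limit. In the G1 cyclin machinery, 18 genes had a probe, Ccnd1 and Ccnd2 included. Of these, 1 (5.56%) was higher in cortex and 2 (11.1%) in epithelium, beside 9.41% and 8.17% of all genes. The second in epithelium was Cdk4, the kinase partner of cyclin D2, with 7.54 in cortex and 37.4 in epithelium (4.95-fold). The one in cortex was Cdkn2a, which encodes inhibitors of these kinases and of Mdm2, at 6.63 in cortex and 0.594 in epithelium (11.2-fold).

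Ccnd2 was also set among 22 reported Wnt target genes with a probe. Of these, 10 (45.5%) were at the floor on both arrays, beside 24.5% of all genes. Higher in cortex was 1 (4.55%) and in epithelium 3 (13.6%), beside 9.41% and 8.17% of all genes. Those in epithelium were Birc5 (survivin, which also acts in mitosis; 2.45 in cortex, 17.2 in epithelium), Ccnd2 and Ephb3 (0.747 in cortex, 2.59 in epithelium), the last of which was lost when the floor was raised to the array median. The one in cortex was Cdx1 (19.6 in cortex, 4.35 in epithelium), whose second probe was below the floor on both arrays and whose call was lost after centring on ribosomal protein genes (1.25). Axin2, a widely used readout of β-catenin signalling, was at the floor on both arrays. Lef1 read 4.12 in cortex and 2.85 in epithelium, and Nkd1 read 0.829 in cortex and 0.773 in epithelium.

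Some of the ligands were brighter in cortex. Of 17 Wnt genes with a probe, 6 (35.3%) were at the floor on both arrays, beside 24.5% of all genes. Cortex held 4 calls (23.5%), beside 9.41% of all genes, and epithelium held none, beside 8.17%. The 4 were Wnt1 (32.1 in cortex, 2.62 in epithelium, 12.2-fold), Wnt2b (6.31 in cortex, 0.729 in epithelium, 8.65-fold), Wnt6 (54.4 in cortex, 8.22 in epithelium, 6.62-fold) and Wnt8b (3.73 in cortex, 0.777 in epithelium, 4.80-fold). Each rests on 1 probe, and Wnt8b did not pass after centring on ribosomal protein genes. In the cytoplasm and nucleus, Ctnnb1, which encodes β-catenin, read 13.5 in cortex and 12.4 in epithelium. Over the 8 Wnt lists together, which held 132 genes with a probe, 11 (8.33%) were higher in cortex and 11 (8.33%) in epithelium, both close to the background of all genes.

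**Figure D3:**
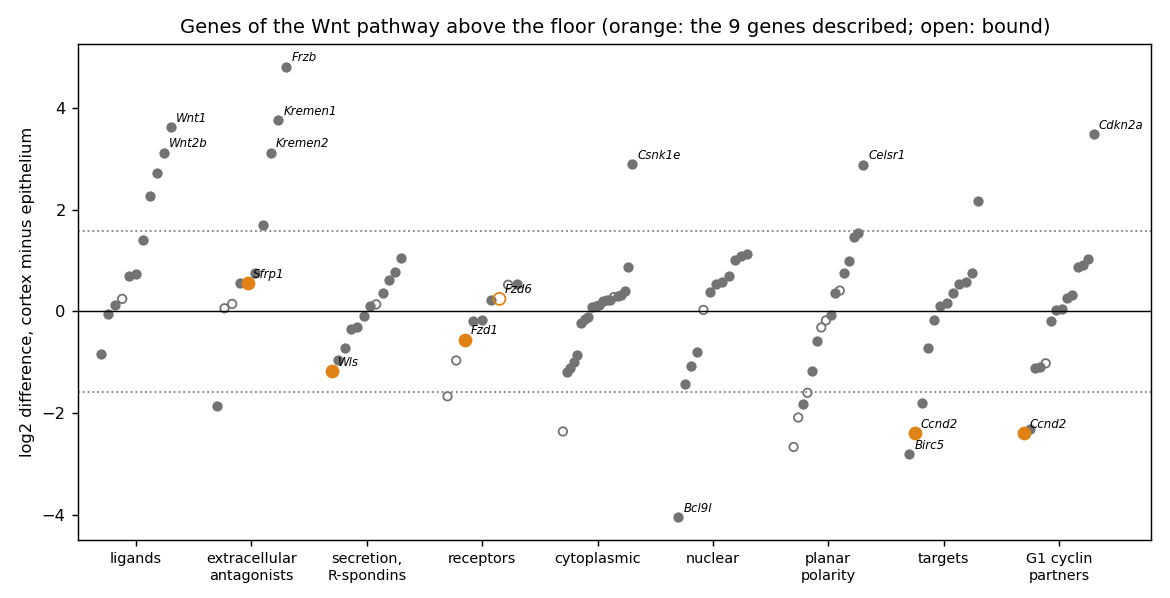
Log2 difference, cortex minus epithelium, for each gene above the floor on at least 1 array in 8 Wnt lists and in the list of G1 cyclin partners, with 1 array per sample; orange points are the genes described, open points are bounds and dotted lines mark 3-fold. Sfrp1, Wls, Fzd1 and Fzd6 lie between the dotted lines and Ccnd2 (-2.40) lies below, while 4 ligands and Frzb, Kremen1, Kremen2 and Sfrp4 lie above.

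The scaling between the arrays touched these values unequally. With the deposited scaling 53.5% of the 3-fold calls over all genes were in cortex (1290 in cortex, 1120 in epithelium). After centring on ribosomal protein genes 19.0% were (590 in cortex, 2508 in epithelium), and over genes exceeding the floor in both samples the median difference became -0.76, against 0.03 before. Relative to that shift, Ccnd2, Wls and Fzd1 lay on the side of epithelium under both scalings. This is no separate check, because the centring divides all cortex values by the same factor and these genes stayed above the floor. The values of Sfrp1 after quantile normalization and loess lay below the medians of those scalings (-0.11 and -0.09). Fzd6 was at the floor on both arrays after centring.

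**Figure D4:**
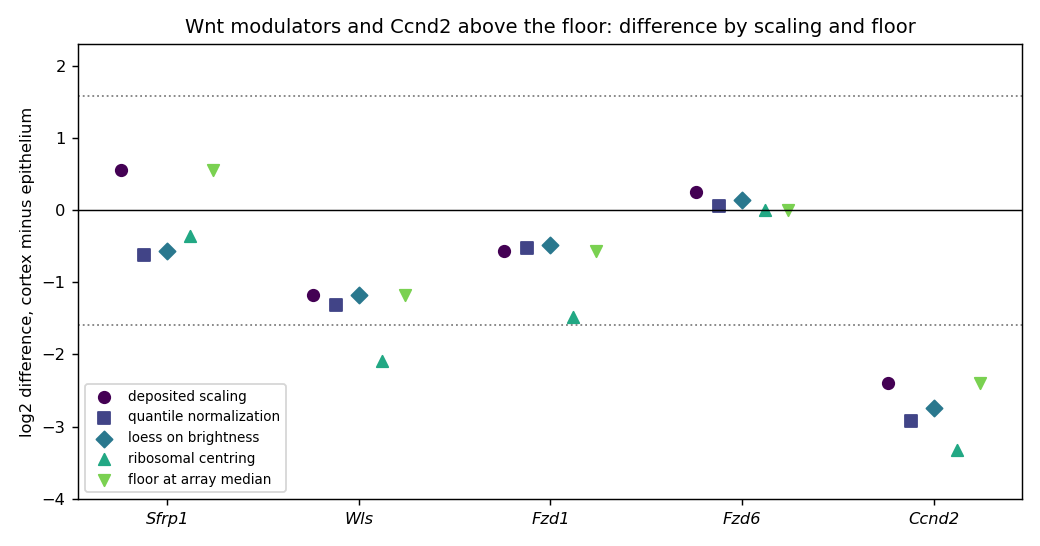
Log2 difference, cortex minus epithelium, of the 5 genes above the floor under the deposited scaling, 3 other scalings and a floor at the array median, with 1 array per sample and dotted lines at 3-fold. Ccnd2 lies beyond the limit in every setting drawn, Wls and Fzd1 stay below 0, Sfrp1 changes sign between scalings (0.56 to -0.62), and Fzd6 lies at or slightly above 0.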

How the data were processed

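The deposited table holds 1 intensity per probe for 19819 probes on 2 arrays. Per the labels, poly(A) RNA was transcribed into biotin-labelled RNA, which was hybridized to CodeLink 1-colour mouse arrays, detected with Cy5-conjugated streptavidin and quantified in the CodeLink software. The labels do not say how the authors scaled the deposited intensity or subtracted background. Array medians are close to 1 and some values lie below 0 (161 in cortex, 74 in epithelium). Samples were grouped by source name.

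The deposited scaling was kept, values were raised to a floor of 0.5 of the array median, and log2 was taken. Probes missing on an array (87 in cortex, 97 in epithelium) were left out. The probe with the highest mean log2 value stood for a gene. Genes were named through the platform annotation (15120 probes with 1 symbol, 38 with several, 4661 with none), and all 9 genes described matched RefSeq by Entrez identifier with the same symbol. No probe sequence was used. A gene at the floor on 1 array has a bound. All described genes are named, and of the Wnt lists and the list of G1 cyclin partners the genes at least 3-fold different plus a few others. Marker lists are given by counts, and those of lens epithelium, lens fiber, ciliary body and pigment cells also by sums. Lef1, Nkd1, Lrp5, Porcn, Ctnnb1, Axin2, Bcl9, Tle4 and the named markers were chosen for their role or values after these were seen. The genes, lists and limits were chosen with earlier results of these data known. The number of arrays limits the precision. The code that makes the 3-fold calls was run on simulated data with known changes, which checks the code and not the choice of limit. Alternatives were 3 scalings (loess span 0.3), 2 floors, a mean across a gene's probes, limits of 2-fold and 5-fold and no brightness filter. Python 3.11.15, numpy 2.4.6, pandas 2.3.3, statsmodels 0.14.6 and matplotlib 3.10.9 were used.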

Additional observations from a re-analysis of the deposited data

How the results depend on the processing

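The single 3-fold call among the 9 genes, Ccnd2 in epithelium, held after quantile normalization, after loess and, at 5.28-fold, narrowly under a 5-fold limit. The other settings could not have removed it. Ccnd2 has 1 probe, both its values lie far above each floor tried, and a 3-fold call also passes a 2-fold limit or no brightness filter. Centring on ribosomal protein genes moved all genes towards epithelium. In none of the settings was a gene of the 9 called in cortex. The count in epithelium was 2 after centring on ribosomal protein genes and 2 with a fold limit of 2, both times with Wls added. Over the 132 Wnt pathway genes, 11 were higher in epithelium, a count that was 24 after centring on ribosomal protein genes, 4 when the floor was raised to the array median, 17 with a fold limit of 2 and 5 with a limit of 5. The count in cortex was 11, and it was 8 after centring on ribosomal protein genes, 10 when the floor was raised to the array median, 18 with a limit of 2 and 8 with a limit of 5. Over all 13709 genes, 1290 were called in cortex and 1120 in epithelium. Centring on ribosomal protein genes gave 590 in cortex and 2508 in epithelium, and the floor at the array median gave 1106 in cortex and 877 in epithelium. A limit of 2 gave 2243 calls in cortex and 2101 in epithelium, and a limit of 5 gave 698 in cortex and 477 in epithelium. In each of these settings the counts of the Wnt genes moved in the same direction as those of all genes. Other fold limits and a higher floor change the counts by construction. So does centring on ribosomal protein genes, which divides all cortex values by the same factor. Why the ribosomal protein genes differed between the arrays was not tested. After centring on ribosomal protein genes, the median over the 4 genes then above the floor was -1.79. No paired analysis was possible because each sample has 1 array. Signal over background limits Sfrp2, Sfrp5, Lrp6, Ccnd1 and Fzd6, for which no fold or only a bound is given. With the floor at 0.25 of the median, Ccnd1 exceeded it in epithelium alone (-0.52).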

Other observations

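The planar polarity branch, which orients cells and their cilia within a tissue plane, held calls in both directions. Of 18 genes with a probe, cortex held 1 call (5.56%, beside 9.41% of all genes) and epithelium 4 (22.2%, beside 8.17%). The one in cortex was Celsr1, an atypical cadherin (19.7 in cortex, 2.68 in epithelium, 7.35-fold). Those in epithelium were Mapk9 (0.320 in cortex, 3.17 in epithelium), Prickle2 (0.379 in cortex, 2.12 in epithelium), Daam2 (0.579 in cortex, 2.04 in epithelium) and Intu (0.332 in cortex, 1.51 in epithelium). The cortex values of Mapk9, Prickle2 and Intu were below the floor. Of the 4, Mapk9 alone still passed when the floor was raised to the array median. The small GTPase gene Rac1 differed by 1.46 and its second probe by 1.92 (49.5 in cortex, 13.1 in epithelium), so that the dimmer probe passed 3-fold and the brighter one did not.

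Among nuclear and cytoplasmic components, Bcl9l, a β-catenin cofactor, read 0.575 in cortex and 9.49 in epithelium, 16.5-fold higher in epithelium, with the cortex value just above the floor. Its relative Bcl9 read 20.9 in cortex and 16.1 in epithelium. The casein kinase genes Csnk1e (13.8 in cortex, 1.85 in epithelium) and Csnk1d (0.311 in cortex, 2.56 in epithelium) lay on opposite sides. Csnk1d was below the floor in cortex, so it was at least 5.14-fold higher in epithelium, a call lost when the floor was raised to the array median (-1.36). Tle4, a corepressor, differed by -0.79 on its brighter probe, while its second probe read 3.67 in cortex and 0.228 in epithelium, the opposite direction.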
